A study of Gallus gallus with 12 samples.

Results

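The genes described here are the heat shock proteins, their cochaperones and the cytosolic chaperonin of the chicken, measured in 4 embryonic cell populations. They were chosen by name: a gene belongs when its symbol in the array annotation begins with HSPA, HSPB, HSPD, HSPE, HSPH, HSP90, HSP25, DNAJ or BAG, or is TCP1, a CCT subunit, HSF1, HSF2 or HSF3. The rule found 79 of the 13008 genes on the array, with 151 of its 37693 chicken probe sets. Where a gene has several, the one with the greatest average across the 12 arrays stands for it. The naming rule uses no measured value, but it was set with earlier results of these data known. HSF1 and HSP25 are not symbols of this annotation, although RefSeq lists HSP25 as an older name of HSPB9.

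The study set out to find transcripts that distinguish chicken primordial germ cells (PGC), the embryonic founders of eggs and sperm, from 3 other cell populations of White Leghorn embryos. Each group held 3 separate samples, hybridised to 1 Affymetrix Chicken Genome Array each from 5 µg of total RNA. PGC and gonadal stromal cells (GSC) were both sorted magnetically from dissociated, pooled gonads of 100 mixed-sex embryos per sample at embryonic day 6.5, stage 30. Chicken embryonic fibroblasts (CEF) came from 5 embryos per sample of the same age, trypsinised and then cultured in serum to passage 2, and blastoderm samples held dissociated cells of 5 stage X embryos from freshly laid eggs. The study text takes the fibroblasts from the embryonic body and a sample label from a muscular area. PGC and GSC share age, source and sorting. They differ in cell type and also in cells per sample, with 270000 for PGC and 9000000 for GSC. Between CEF and the sorted groups cell type differs together with culture and sorting, and between blastoderm and the rest together with age. Blastoderm also differs from the sorted groups in sorting and in embryos per sample, and from CEF in culture. Cells per sample were 530000 for blastoderm and 6000000 for CEF. These factors cannot be told apart.

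Chaperones bind proteins that are not yet folded or have lost their fold and release them for another attempt. HSP70 proteins do so in cycles of ATP hydrolysis that J proteins (the DNAJ genes) start and that HSP110 and BAG proteins move on by exchanging the nucleotide, HSP90 finishes kinases and receptors, the TRiC ring encloses actin and tubulin, and small heat shock proteins hold aggregating proteins without ATP. Heat shock factors switch many of these genes on under stress. Separate sets work in the endoplasmic reticulum, where secreted proteins fold, and in mitochondria.

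Levels are the deposited log2 values, and a difference of group means on that scale is given as a fold with its standard error (SE) in log2 units. Differences were tested with limma over all probe sets, and a gene is called higher or lower at a Benjamini-Hochberg adjusted p below 0.05. Background was set at 3.61, the 99th percentile of the 746 probe sets that match viruses or reporter genes. The label of each group was checked against marker genes. All 7 measured germ cell markers were higher in PGC than in each other group, with DAZL at 10.81 ± 0.58 (SD, n = 3) in PGC and 6.64 in GSC. The 7 gonadal stroma markers were above background on every GSC array, the 8 fibroblast and matrix markers on every CEF array, and the 5 early embryo markers on every blastoderm array. Markers of other cell types were above background in every group. On the PGC arrays these included 6 or 7 of the 7 stroma markers and all 5 erythroid markers. They also included 7 of the 8 fibroblast and matrix, all 7 mesonephros, 5 or 6 of the 6 endothelial and 3 of the 5 leukocyte markers. The GSC arrays had 5 or 6 of the 7 germ cell markers and all 5 erythroid markers. They also had 7 of the 8 fibroblast and matrix, 6 or 7 of the 7 mesonephros, all 6 endothelial and 4 of the 5 leukocyte markers. All 5 leukocyte markers were above background on every CEF array. Of the erythroid markers, 4 or 5 were above background in blastoderm and 4 in CEF. The third PGC array lay nearer to GSC than the others did, with a median correlation to the GSC arrays of 0.964 against 0.932 and 0.941. In bulk RNA, fewer cells of a type and less RNA per cell cannot be told apart.

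Most of these genes were above background everywhere. Of the 79 genes, 67 had a mean above background in all 4 groups, 7 in some of them and 5 in none. The 5 genes within background in all groups were DNAJB5, DNAJB13, DNAJC5B, DNAJC6 and HSPB3. The difference between the highest and the lowest group mean had a median of 1.17 log2 units, against 1.09 over all genes and 1.34 over the 10455 genes with a group mean above background. It ran from 0.11 for DNAJC5B to 5.62 for HSPA12A. Blastoderm had the highest mean for 38 of the genes, CEF for 19, PGC for 14 and GSC for 8. Called in all 6 pairwise comparisons were BAG2, DNAJB6, DNAJC12, HSPA12A, HSPB1 and HSPH1. HSPA12A and HSPB1 kept all 6 calls in the 24 alternative fits, and the other 4 lost at least 1. Among the calls lost were DNAJC12 for blastoderm and CEF, HSPH1 for PGC and CEF, and DNAJB6 for PGC and blastoderm. Another 13 genes were called in none: BAG4, CCT3, DNAJB5, DNAJB8, DNAJB13, DNAJB14, DNAJC5B, DNAJC6, DNAJC14, DNAJC16, DNAJC30, HSPB7 and HSPB7L. The matching shares of all genes on the array were not counted, so whether either number is unusual was not tested.

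**Figure D1:**
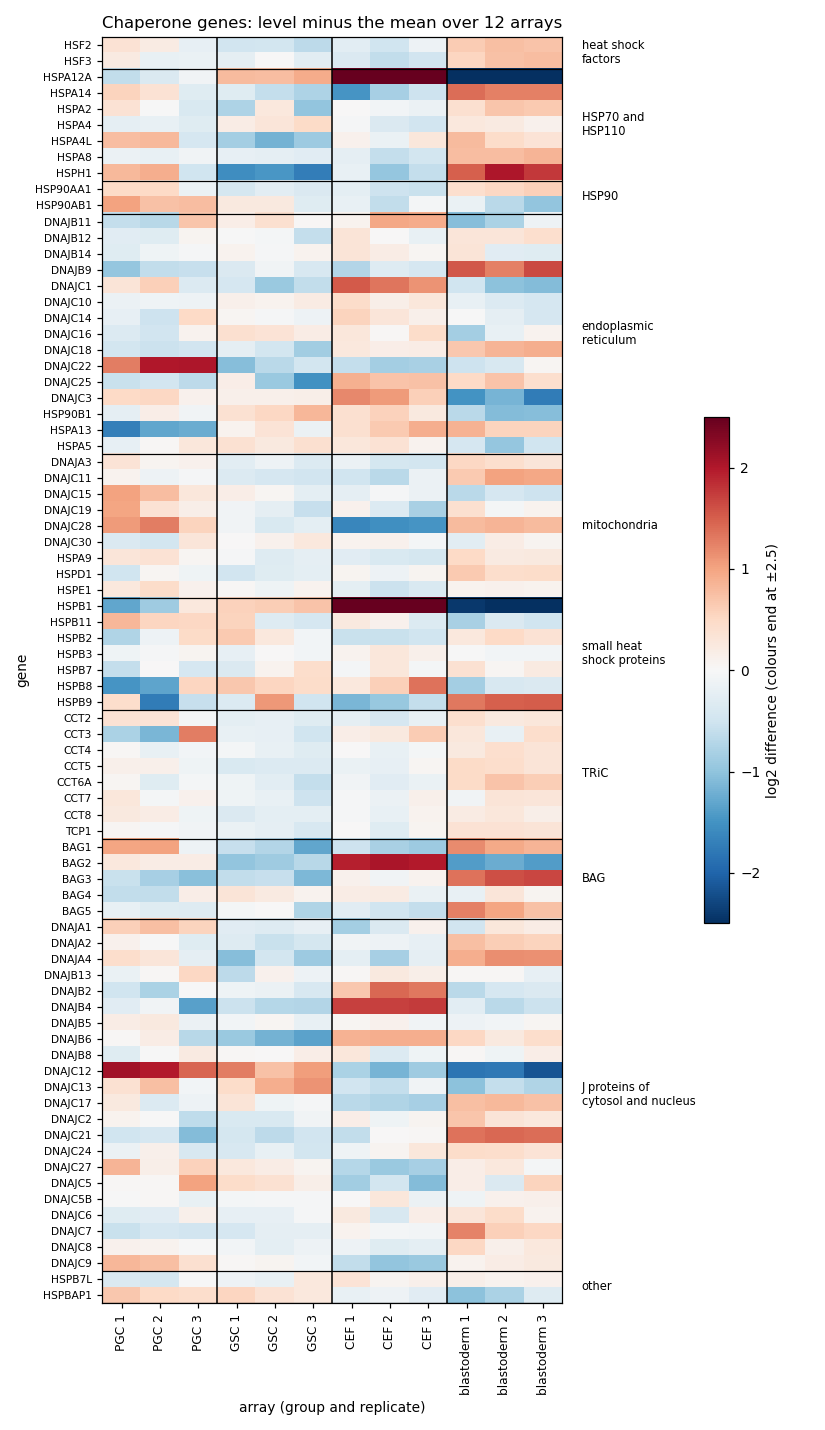
Level of each of the 79 chaperone genes on each of the 12 arrays, as the log2 difference from the gene's own mean over the 12 arrays, with genes in rows grouped by role and arrays in columns by group. Red rows at the right mark genes that were high in blastoderm, such as HSPH1, BAG3 and HSPB9, and the deepest colours belong to HSPA12A and HSPB1, which were high in CEF and low in blastoderm.

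The blastoderm comparisons stood out by number. Blastoderm exceeded GSC at 38 of the 79 genes (48.1%), where 25.4% of all genes were called higher, and fell below GSC at 13 (16.5%), where 24.8% of all genes were called lower. Against CEF, 35 were higher in blastoderm (44.3%, with 27.2% of all genes) and 14 lower (17.7%, with 24.0%). In PGC, 27 genes were lower than in blastoderm (34.2%, with 23.5% of all genes) and 16 were higher (20.3%, with 26.2%). The median difference, blastoderm minus GSC, was 0.44 log2 units over the 79 genes and 0.07 over all genes. For blastoderm minus CEF these medians were 0.37 and 0.05, and for PGC minus blastoderm -0.22 and -0.07. A measure of RNA quality was the signal of the actin control at its 3′ end minus that at its 5′ end. It was 0.67 to 1.18 log2 units on the blastoderm arrays, 0.35 to 0.80 in PGC and 0.05 to 0.27 in GSC. Both blastoderm and PGC lay above GSC without overlap, and CEF ran from 0.15 to 0.91. For the GAPDH control the ranges were -0.04 to 0.34 in blastoderm, -0.20 to -0.07 in GSC and -0.21 to -0.14 in PGC, which overlapped GSC. Their part in the chaperone differences was not tested.

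PGC exceeded GSC at 23 genes (29.1%), where 16.8% of all genes were called higher, and were lower at 6 (7.59%, with 13.4% of all genes). The count of lower genes rested on the third PGC array, and without it 27 genes were higher and 13 lower. Without the first PGC array 15 were higher. PGC exceeded CEF at 24 genes (30.4%, with 27.7% of all genes) and were lower at 15 (19.0%, with 22.0%), both near the share of all genes. GSC exceeded CEF at 11 (13.9%), a smaller share than the 22.3% of all genes, and were lower at 15 (19.0%, with 20.2%). The lower genes include HSPB3, which was within background in both groups, at 1.32 in GSC and 1.58 in CEF. Its call was lost in several alternative fits. Among the 74 members with a group mean above background 14 were lower (18.9%, with 22.7% of all genes above background).

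**Figure D2:**
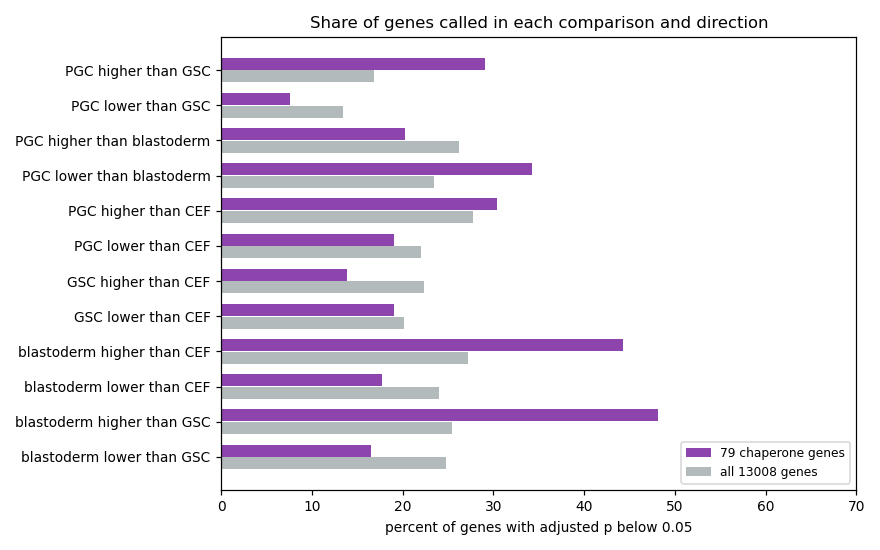
Percent of the 79 chaperone genes (purple) and of all 13008 genes (grey) that were called higher or lower in each of the 6 pairwise comparisons. The purple bar is longest, at 48.1% and 44.3%, where blastoderm exceeded GSC and CEF, and is below the grey bar at 7.59% where PGC were lower than GSC.

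Both measured heat shock factors were highest in blastoderm. HSF2, a factor known in mammals for its part in gametogenesis and early embryos, read 9.27, 9.40 and 9.35 on the blastoderm arrays. Its values were 8.99, 8.84 and 8.43 in PGC, 8.16, 8.18 and 7.99 in GSC, and 8.38, 8.14 and 8.51 in CEF. Blastoderm lay above every other array, PGC lay above GSC without overlap, and GSC overlapped CEF. HSF2 was 2.35-fold higher in blastoderm than in GSC (SE 0.16, adjusted p = 8.39e-06) and 1.56-fold higher in PGC than in GSC (SE 0.16, adjusted p = 0.007). The 1.33-fold excess of PGC over CEF (adjusted p = 0.0494) was called in the fit used here and lost in 16 of the 24 alternative fits.

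HSF3, which in birds acts in the heat shock response beside HSF1, read 7.78, 7.98 and 8.02 in blastoderm and no more than 7.48 on any other array. The other groups had 7.48, 7.06 and 7.08 in PGC, 7.03, 7.26 and 6.98 in GSC, and 6.89, 6.63 and 6.78 in CEF. The excess of blastoderm was 2.24-fold over CEF (SE 0.18, adjusted p = 4.02e-05), 1.79-fold over GSC (SE 0.18, adjusted p = 0.00105) and 1.65-fold over PGC (SE 0.18, adjusted p = 0.00371). The 2 other HSF3 probe sets were called higher in blastoderm in the same 3 comparisons.

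**Figure D3:**
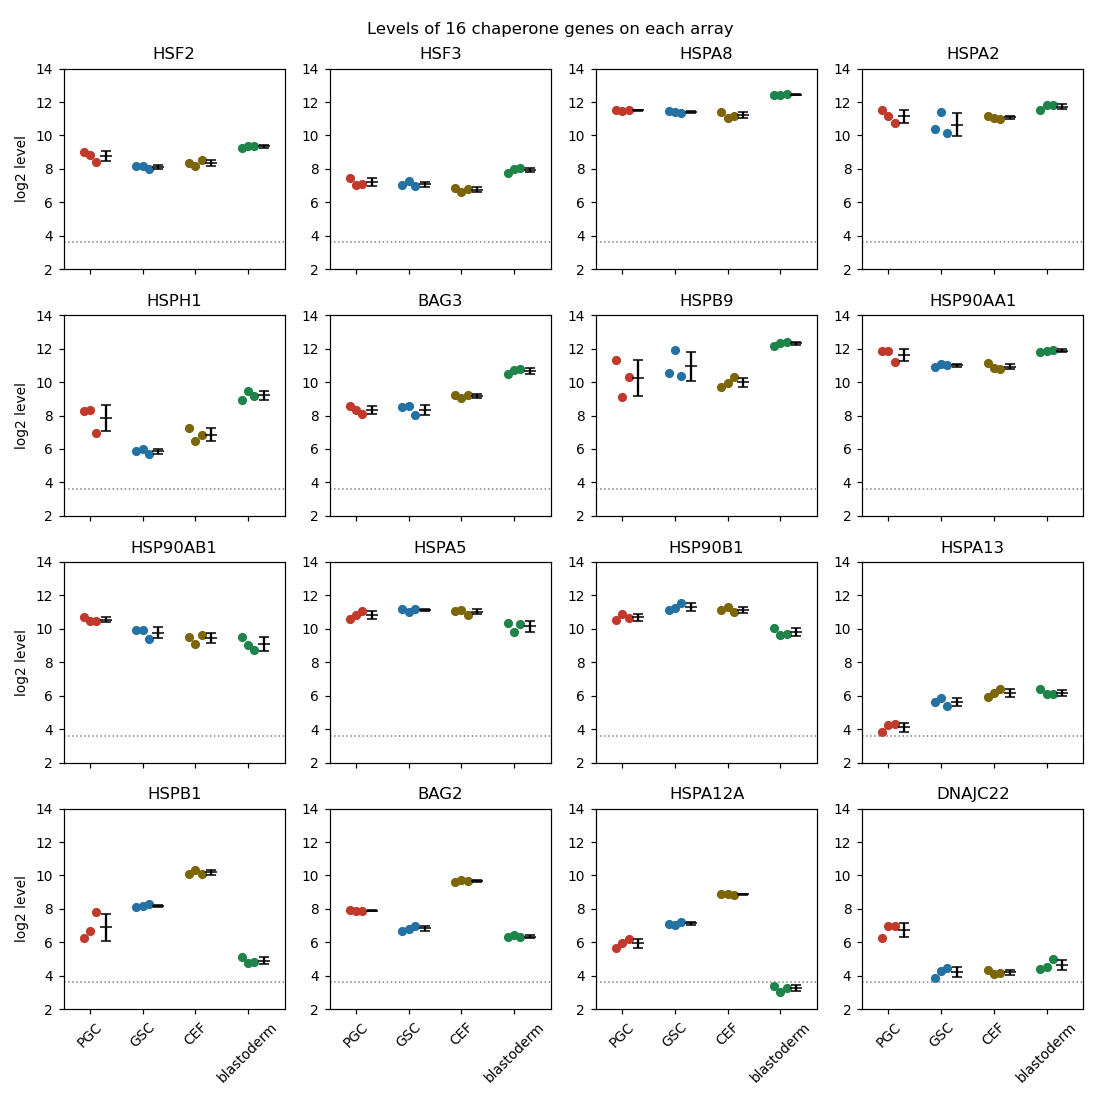
Log2 level of 16 chaperone genes on each array, with 3 coloured points per group, the group mean ± SD in black beside them and the background level of 3.61 as a dotted line. HSF2, HSF3, HSPA8, HSPH1, BAG3 and HSPB9 were highest in blastoderm, HSPA5 and HSP90B1 were lowest there, HSPB1, BAG2 and HSPA12A were highest in CEF, and DNAJC22 was highest in PGC.

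Of the 7 HSP70 and HSP110 genes of the cytosol, 5 were higher and 1 lower in blastoderm than in GSC, with the same counts against CEF. Over all genes 25.4% were higher and 24.8% lower against GSC, and 27.2% and 24.0% against CEF. HSPA8, the constitutive HSP70 of the cytosol, was highest in blastoderm, at 12.42, 12.41 and 12.49. It read 11.49, 11.45 and 11.54 in PGC, 11.43, 11.42 and 11.36 in GSC, and 11.43, 11.05 and 11.19 in CEF. Every blastoderm array lay above the other 9. The fold over CEF was 2.33 (SE 0.08, adjusted p = 4.03e-09), over GSC 2.05 (adjusted p = 4.42e-08) and over PGC 1.93 (adjusted p = 1.49e-07). PGC and GSC did not differ by the test, at 1.06-fold (SE 0.08, adjusted p = 0.521).

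HSPA2, for which RefSeq lists the older name HSP70, varied more within the sorted groups. It read 11.54, 11.85 and 11.80 in blastoderm, 11.16, 11.07 and 11.003 in CEF, 11.52, 11.15 and 10.77 in PGC, and 10.37, 11.42 and 10.17 in GSC. The second GSC array was about 1 log2 unit above the other GSC arrays and overlapped PGC. Blastoderm exceeded GSC 2.11-fold (SE 0.24, adjusted p = 0.00164). Its 1.57-fold excess over CEF (SE 0.24, adjusted p = 0.0399) was lost in 12 of the 24 alternative fits.

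HSPA14, a ribosome-associated HSP70, read 8.39, 8.25 and 8.27 in blastoderm. Its mean was 7.20 ± 0.45 in PGC, 6.44 ± 0.24 in GSC and 6.05 ± 0.49 in CEF (SD, n = 3 each). No array of another group reached the blastoderm values, and blastoderm exceeded CEF 4.74-fold (SE 0.25, adjusted p = 1.83e-06). HSPA12A, a distant HSP70 relative, ran the other way. It read 8.88, 8.89 and 8.85 in CEF, 7.10, 7.07 and 7.22 in GSC, 5.68, 5.94 and 6.21 in PGC, and 3.42, 3.06 and 3.28 in blastoderm. The 4 groups did not overlap, and all 3 blastoderm arrays were within background, so that only bounds can be given: HSPA12A was at least 38.5-fold higher in CEF (adjusted p = 1.35e-12), at least 11.5-fold higher in GSC (adjusted p = 1.84e-10) and at least 5.04-fold higher in PGC (adjusted p = 1.28e-08). A second HSPA12A probe set was called in the same direction in all 6 comparisons.

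HSPH1, an HSP110 protein that exchanges the nucleotide on HSP70, had the largest excess in blastoderm over GSC among the 79 genes. It read 8.94, 9.47 and 9.20 in blastoderm, 8.26, 8.34 and 6.94 in PGC, 7.24, 6.47 and 6.84 in CEF, and 5.89, 5.98 and 5.70 in GSC. GSC lay below every other array and the third PGC array fell among CEF. Blastoderm exceeded GSC 10.2-fold (SE 0.30, adjusted p = 2.01e-07), and PGC exceeded GSC 3.97-fold (SE 0.30, adjusted p = 0.000203). A second HSPH1 probe set stayed at background in all groups and called none of this. HSPA4L, another HSP110 protein, was also lowest in GSC, at 7.66, 7.33 and 7.60. The other groups had means of 9.03 in blastoderm, 8.89 in PGC and 8.58 in CEF, and PGC exceeded GSC 2.57-fold (SE 0.26, adjusted p = 0.0011). The differences of HSPH1 and HSPA4L between GSC and CEF (1.99-fold and 2.07-fold) were not called in every alternative, HSPA4L with the mean of its probe sets and HSPH1 with an offset of 64 or without the first CEF array or the third GSC array. HSPA4, the third of these proteins, had its highest mean in GSC, at 9.32 ± 0.15, but its 2 probe sets disagreed on GSC: the other one read 7.12 in GSC and 8.13 in blastoderm.

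The cytosolic HSP90 genes separated from each other. HSP90AA1, the stress-inducible form, read 11.79, 11.87 and 11.95 in blastoderm and 11.84, 11.86 and 11.23 in PGC, against 10.93, 11.09 and 11.01 in GSC and 11.13, 10.85 and 10.81 in CEF. Blastoderm and PGC overlapped and both lay above GSC and CEF. Blastoderm exceeded CEF 1.92-fold (SE 0.14, adjusted p = 2.47e-05), and PGC exceeded GSC 1.55-fold (SE 0.14, adjusted p = 0.00288). HSP90AB1, the constitutive form, read 10.72, 10.45 and 10.48 in PGC and was lower on all other arrays. It read 9.95, 9.95 and 9.40 in GSC, 9.53, 9.10 and 9.66 in CEF, and 9.53, 9.03 and 8.72 in blastoderm. PGC exceeded blastoderm 2.75-fold (SE 0.20, adjusted p = 2.11e-05), CEF 2.17-fold (adjusted p = 0.000285) and GSC 1.72-fold (adjusted p = 0.00926). The excess over GSC was no longer called without the first PGC array or without the third GSC array.

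The TRiC chaperonin genes were higher in blastoderm by small amounts. Of its 8 subunit genes, 7 were higher in blastoderm than in GSC, 5 higher than in CEF and 4 higher than in PGC. The rest were not called. The shares of all genes called higher in blastoderm were 25.4%, 27.2% and 23.5% in the same order. The median difference was 0.54 log2 units for blastoderm minus GSC and 0.41 for blastoderm minus CEF. TCP1 read 11.75, 11.74 and 11.71 in blastoderm, 11.44, 11.35 and 11.29 in PGC, 11.39, 11.08 and 11.46 in CEF, and 11.22, 11.16 and 10.98 in GSC. It was 1.53-fold higher in blastoderm than in GSC (SE 0.09, adjusted p = 6.14e-05), without overlap. CCT6A had the largest of the called TRiC differences, 1.90-fold over GSC (SE 0.13, adjusted p = 2.98e-05), but with the mean of its 3 probe sets its differences from GSC, CEF and PGC were not called. The excess of CCT7 over GSC was lost without the second or the third blastoderm array or the third GSC array. CCT3 was called in no comparison, and its values in PGC were 5.99, 5.63 and 8.06.

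PGC exceeded GSC at 3 of the 8 TRiC genes, where 16.8% of all genes were called higher. They were CCT2, CCT5 and CCT8, by 1.39-fold (adjusted p = 0.00707), 1.32-fold (adjusted p = 0.0094) and 1.31-fold (adjusted p = 0.0107). The CCT8 call was lost without the first PGC array, without the intensity trend and with the mean of its probe sets. Outside the ring, the list of prefoldin subunits, which hand actin and tubulin to TRiC, and of other chaperonin partners changed in both directions. Of its 10 measured genes, 3 were higher and 2 lower in blastoderm than in GSC, where 25.4% and 24.8% of all genes were. Against CEF 2 were higher and 3 lower, where 27.2% and 24.0% of all genes were. PFDN1 was 6.93 in blastoderm and 8.81 in GSC, and PFDN4 was 9.77 and 8.53.

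The 5 BAG genes, which exchange the nucleotide on HSP70, took opposite courses. BAG3, which pairs HSP70 with small heat shock proteins in selective autophagy, read 10.49, 10.73 and 10.80 in blastoderm, 9.23, 9.05 and 9.22 in CEF, 8.57, 8.31 and 8.09 in PGC, and 8.51, 8.54 and 8.01 in GSC. Blastoderm lay above CEF and CEF above both sorted groups, which overlapped. The excess of blastoderm was 5.10-fold over PGC (SE 0.16, adjusted p = 1.22e-08) and 4.99-fold over GSC (adjusted p = 1.13e-08), and a second BAG3 probe set was called the same way. BAG5 was also highest in blastoderm, at 6.94 ± 0.27 against means between 5.48 and 5.67.

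BAG2, an inhibitor of the ubiquitin ligase CHIP, was highest in CEF and lowest in blastoderm. It read 9.63, 9.73 and 9.67 in CEF, 7.96, 7.87 and 7.88 in PGC, 6.70, 6.79 and 6.99 in GSC, and 6.29, 6.44 and 6.29 in blastoderm. The 4 groups did not overlap. The excess of GSC over blastoderm was lost without the third array of either group. CEF exceeded blastoderm 10.1-fold (SE 0.15, adjusted p = 2.92e-11), and PGC exceeded GSC 2.10-fold (SE 0.15, adjusted p = 7.64e-05). BAG1 was higher in PGC, at 7.37 ± 0.65, and in blastoderm, at 7.75 ± 0.18, than in GSC at 5.89 ± 0.37 and CEF at 6.004 ± 0.20 (SD, n = 3 each). PGC exceeded GSC 2.81-fold (SE 0.28, adjusted p = 0.00102), although the third PGC array was 6.62 beside 7.74 and 7.76. BAG4 was called in no comparison.

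Of the 7 small heat shock proteins, 2 were higher and 2 lower in blastoderm than in CEF, where 27.2% and 24.0% of all genes were. Against GSC 1 was higher and 2 lower, where 25.4% and 24.8% of all genes were. HSPB1, the ubiquitous small heat shock protein that binds the actin cytoskeleton, read 10.10, 10.35 and 10.11 in CEF, 8.11, 8.17 and 8.27 in GSC, 6.24, 6.65 and 7.82 in PGC, and 5.13, 4.76 and 4.85 in blastoderm. The groups did not overlap, and the third PGC array was the one nearest to GSC. CEF exceeded blastoderm 38.7-fold (SE 0.28, adjusted p = 2.89e-10), GSC exceeded blastoderm 9.65-fold (adjusted p = 1.19e-07) and PGC exceeded blastoderm 3.98-fold (adjusted p = 3.13e-05). GSC were 2.43-fold above PGC (SE 0.28, adjusted p = 0.00373).

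HSPB9, known in chicken as HSP25, went the other way and varied widely within the sorted groups. It read 12.19, 12.36 and 12.39 in blastoderm and 9.73, 9.93 and 10.28 in CEF. The PGC values were 11.31, 9.13 and 10.29 and the GSC values 10.53, 11.95 and 10.37, a spread of about 2 log2 units in PGC. No array reached blastoderm, and PGC, GSC and CEF overlapped. Blastoderm exceeded CEF 5.05-fold (SE 0.42, adjusted p = 0.000226), PGC 4.20-fold (SE 0.42, adjusted p = 0.00084) and GSC 2.58-fold (SE 0.42, adjusted p = 0.016). The difference from GSC was not called without the first or without the third GSC array, with a robust prior or with array weights. A second HSPB9 probe set was called higher in blastoderm in the same 3 comparisons, although the second GSC array lay above the lowest blastoderm array. It read 11.14, 11.51 and 11.36 in blastoderm, 9.90, 6.84 and 8.61 in PGC, and 8.32, 11.16 and 8.36 in GSC.

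HSPB8, the partner of BAG3, was higher in GSC and CEF, at 5.78 ± 0.10 and 5.96 ± 0.56, than in blastoderm, at 4.68 ± 0.27 (SD, n = 3 each). The excess of GSC over blastoderm (2.13-fold, SE 0.41, adjusted p = 0.0452) was lost in 11 of the 24 alternative fits, and that of CEF without the first blastoderm array or the third CEF array. In PGC HSPB8 read 3.74, 3.90 and 5.76, so that 1 array lay in the GSC range. GSC exceeded PGC 2.48-fold (SE 0.41, adjusted p = 0.0293), a call lost in 8 of them, and without the third PGC array the log2 difference, PGC minus GSC, moved from -1.31 to -1.96. The intraflagellar transport protein HSPB11 was 2.29-fold higher in PGC than in blastoderm (SE 0.26, adjusted p = 0.00147). HSPB7 and the related HSPB7L were called in no comparison. HSPB2 was called higher in GSC and in blastoderm than in CEF, but all CEF arrays were within background and its means elsewhere were at most 3.71. The call against GSC was lost without the second CEF array or the first GSC array.

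Among the 22 J proteins of the cytosol and nucleus, 9 were higher and 2 lower in blastoderm than in GSC, where 25.4% and 24.8% of all genes were. Against CEF 9 were higher and 4 lower, where 27.2% and 24.0% of all genes were. DNAJA4, a cytosolic partner of HSP70, read 11.24, 11.49 and 11.47 in blastoderm, 10.77, 10.64 and 10.09 in PGC, 10.08, 9.49 and 10.10 in CEF, and 9.26, 9.87 and 9.42 in GSC. Blastoderm lay above PGC and PGC above GSC without overlap. The folds were 3.68 for blastoderm over GSC (SE 0.19, adjusted p = 7.49e-07) and 1.97 for PGC over GSC (SE 0.19, adjusted p = 0.0015). Of its 3 other probe sets, 1 was called the same way for blastoderm and GSC and 1, with a highest group mean of 3.31, the opposite way. With the mean of all 4 probe sets the excess of PGC over GSC was not called.

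DNAJC21, a ribosome biogenesis factor, read 5.94, 6.01 and 5.97 in blastoderm and 4.60 or less on every other array. Blastoderm exceeded GSC 3.78-fold (SE 0.22, adjusted p = 3.15e-06). DNAJA2 was 2.12-fold higher in blastoderm than in GSC (SE 0.12, adjusted p = 2.33e-06) and DNAJC17, a splicing-related J protein, was 2.85-fold higher than in CEF (SE 0.20, adjusted p = 1.04e-05). DNAJC7, which bridges HSP70 and HSP90, was called higher in blastoderm than in all 3 groups, but its second probe set was called lower there in each, so its direction is uncertain.

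Some J proteins were highest in CEF. DNAJB4, a partner of HSP70, read 10.22, 10.22 and 10.26 in CEF and at most 8.42 elsewhere, with a 5.21-fold excess over GSC (SE 0.24, adjusted p = 8.28e-07). DNAJB6, which keeps proteins from aggregating, read 10.21, 10.25 and 10.25 in CEF, 9.85, 9.58 and 9.77 in blastoderm, 9.37, 9.52 and 8.64 in PGC, and 8.41, 8.16 and 7.99 in GSC. It was highest in CEF and lowest in GSC, with a 4.14-fold difference between them (SE 0.19, adjusted p = 2.43e-07). The 1.42-fold excess of CEF over blastoderm (adjusted p = 0.0416) was lost in 7 of the 24 alternative fits. All 3 other DNAJB6 probe sets were lower in GSC than in CEF too, while for PGC against GSC 1 of them was called in the opposite direction. With the mean of its probe sets the DNAJB6 excess of PGC over GSC was not called. DNAJB2 was above background only in CEF, at 4.04, 4.82 and 4.69, at least 1.88-fold above each other group (adjusted p = 0.00019 against GSC).

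Lower in CEF than in all other groups were DNAJC27, DNAJC5, DNAJC9 and DNAJC17. DNAJC5, the cysteine string protein of secretory vesicles, had a mean of 7.58 ± 0.32 in CEF and between 8.50 and 8.73 elsewhere, but with the mean of its probe sets the excess of PGC and of blastoderm was not called, nor was that of blastoderm without the third blastoderm array. The difference of DNAJC17 between PGC and CEF was lost with an offset of 64, without the first PGC array and with the mean of its probe sets. DNAJC27 had a mean of 4.45 ± 0.11 in CEF and between 5.40 and 5.81 elsewhere. DNAJC9, a J protein that also chaperones histones, read 8.21, 7.84 and 7.89 in CEF, 8.86, 8.89 and 8.75 in GSC, 8.92, 9.01 and 9.08 in blastoderm, and 9.65, 9.58 and 9.23 in PGC. The 4 groups did not overlap. PGC exceeded CEF 2.84-fold (SE 0.15, adjusted p = 4.38e-07) and GSC 1.57-fold (SE 0.15, adjusted p = 0.00407). DNAJA1, a farnesylated partner of HSP70, was likewise highest in PGC, at 9.57, 9.72 and 9.53, and was 1.87-fold above GSC (SE 0.22, adjusted p = 0.0062). For both DNAJC9 and DNAJA1 the excess of PGC over blastoderm was lost without the first blastoderm array and without the first or the second PGC array.

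DNAJC12, which in humans binds the hydroxylases of aromatic amino acids, was higher in both gonadal fractions than in CEF and blastoderm. It read 6.64, 6.53 and 5.998 in PGC, 5.82, 5.27 and 5.59 in GSC, 3.75, 3.38 and 3.65 in CEF, and 2.72, 2.75 and 2.38 in blastoderm. The groups did not overlap, but all blastoderm arrays and 1 CEF array were within background, as was the CEF mean of 3.59. The call of CEF over blastoderm was lost with an offset of 16 or of 64 before the logarithm. DNAJC12 was at least 6.88-fold higher in PGC than in blastoderm (adjusted p = 2.28e-09), at least 3.87-fold higher in GSC than in blastoderm (adjusted p = 2.63e-08), and 1.78-fold higher in PGC than in GSC (SE 0.22, adjusted p = 0.0131). The last call was lost without the first or second PGC array or the second GSC array. DNAJC13, which acts on endosomes, was also higher in the gonadal fractions, with GSC 3.09-fold above blastoderm (SE 0.24, adjusted p = 3.33e-05). Its excess in PGC over CEF was lost without the first or the second CEF or PGC array.

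Erythroid and endothelial markers, like DNAJC12 and DNAJC13, were higher in the gonadal fractions than in CEF and blastoderm by their summed level. Between the 2 fractions DNAJC12 was called higher in PGC. DNAJC13 was not called between them, with a log2 difference, PGC minus GSC, of -0.48. Of the markers, 4 of the 6 endothelial and 1 of the 5 erythroid were lower in PGC and 0 higher. Over all genes 13.4% were lower in PGC than in GSC and 16.8% higher. The summed level of the 5 erythroid markers was 14.27 to 14.37 log2 units in GSC and 13.99 to 14.19 in PGC, against 9.45 to 9.85 in blastoderm and 7.18 to 7.36 in CEF. For the 6 endothelial markers, of which 6 were above background on GSC arrays, 5 or 6 in PGC, 3 in CEF and 2 in blastoderm, it was 9.31 to 9.74 in GSC and 7.25 to 8.95 in PGC, against 6.13 to 6.26 in blastoderm and 6.11 to 6.28 in CEF. The part of these cells in the differences was not tested.

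In the endoplasmic reticulum blastoderm was low for the main chaperones. HSPA5, the HSP70 of that compartment also called GRP78, read 10.35, 9.79 and 10.27 in blastoderm, 10.57, 10.81 and 11.06 in PGC, 11.16, 11.02 and 11.17 in GSC, and 11.05, 11.13 and 10.85 in CEF. HSP90B1, its HSP90, read 10.06, 9.65 and 9.67 in blastoderm, 10.50, 10.90 and 10.64 in PGC, 11.12, 11.25 and 11.56 in GSC, and 11.13, 11.31 and 10.98 in CEF. For both genes every blastoderm array lay below the other 9, and GSC overlapped CEF. GSC exceeded blastoderm 1.97-fold for HSPA5 (SE 0.14, adjusted p = 3.26e-05) and 2.87-fold for HSP90B1 (SE 0.14, adjusted p = 2.36e-07). A second HSP90B1 probe set, at 2.77 in blastoderm and 6.76 in GSC, was called in the same direction. GSC also exceeded PGC for HSP90B1, 1.55-fold (SE 0.14, adjusted p = 0.00365). For PGC against CEF the HSP90B1 probe sets were called in opposite directions.

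DNAJC3, a cochaperone of HSPA5 that in mammals also restrains the stress kinase EIF2AK3, read 5.57, 5.91 and 5.33 in blastoderm, 7.19, 7.20 and 7.22 in GSC, 7.57, 7.58 and 7.19 in PGC, and 8.26, 8.13 and 7.67 in CEF. Blastoderm lay below all others, and CEF exceeded it 5.34-fold (SE 0.20, adjusted p = 6.09e-08). The membrane J protein DNAJC1 was highest in CEF, at 10.95, 10.77 and 10.56, and 4.60-fold above blastoderm (SE 0.22, adjusted p = 3.61e-07). DNAJB11, a cochaperone that binds HSPA5 clients, was 2.50-fold higher in CEF than in blastoderm (SE 0.35, adjusted p = 0.00547). Not all genes of this compartment moved that way. Of the 15 members, 5 were higher and 4 lower in blastoderm than in GSC, where 25.4% and 24.8% of all genes were. Against CEF 2 were higher and 6 lower, where 27.2% and 24.0% of all genes were.

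DNAJB9, an inducible cochaperone that in mammals represses the stress sensor ERN1, was the opposite of HSPA5, at 8.89, 8.60 and 8.99 in blastoderm against 6.37, 6.73 and 6.75 in PGC. It read 6.97, 7.24 and 6.94 in GSC and 6.60, 7.02 and 6.92 in CEF, and the lower 3 groups lay far below blastoderm. Blastoderm exceeded PGC 4.64-fold (SE 0.19, adjusted p = 9.99e-08), and both other DNAJB9 probe sets were called higher in blastoderm in all 3 comparisons. DNAJC18 was also highest in blastoderm, at 9.01 ± 0.12 against 7.69 ± 0.33 in GSC (SD, n = 3 each).

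HSPA13, a microsomal HSP70 relative, was the one gene of the 79 that was lower in PGC than in all 3 other groups. It read 3.82, 4.23 and 4.29 in PGC, 5.62, 5.86 and 5.38 in GSC, 5.92, 6.18 and 6.42 in CEF, and 6.39, 6.08 and 6.09 in blastoderm. PGC were clear of every other array, with blastoderm 4.22-fold higher (SE 0.21, adjusted p = 9.96e-07), CEF 4.17-fold higher and GSC 2.85-fold higher (SE 0.21, adjusted p = 0.000105). A second HSPA13 probe set, with all group means within background, was called the same way against blastoderm and CEF and not against GSC.

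DNAJC22, a membrane J protein whose fly relative acts in endocytosis, was higher in PGC than in all 3 other groups. It read 6.23, 6.96 and 6.97 in PGC, 3.88, 4.28 and 4.49 in GSC, 4.36, 4.10 and 4.14 in CEF, and 4.43, 4.55 and 4.99 in blastoderm. PGC exceeded CEF 5.74-fold (SE 0.24, adjusted p = 4.4e-07), GSC 5.68-fold (adjusted p = 2.35e-06) and blastoderm 4.18-fold (adjusted p = 4.49e-06). Markers of the mesonephros, the embryonic kidney that lies against the gonad, also had their highest summed level in PGC. DNAJC22 was not called between GSC and CEF or between GSC and blastoderm, and the summed level of these markers was higher in GSC than in both. Their median level was 5.33 to 5.39 on the GSC arrays and 7.06 to 8.44 on the PGC arrays. The 7 measured markers were above background on every PGC array, and 4 of them, LRP2, CUBN, SLC3A1 and GATM, were higher in PGC than in GSC while 2, UMOD and PODXL, were lower. Of all genes, 16.8% were higher and 13.4% lower in that comparison. The summed level of the 7 was 10.27 to 11.27 log2 units over the PGC arrays, 9.48 to 9.93 in GSC, 6.58 to 7.15 in CEF and 6.76 to 6.83 in blastoderm. Their part in the DNAJC22 and DNAJC12 differences was not tested.

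**Figure D4:**
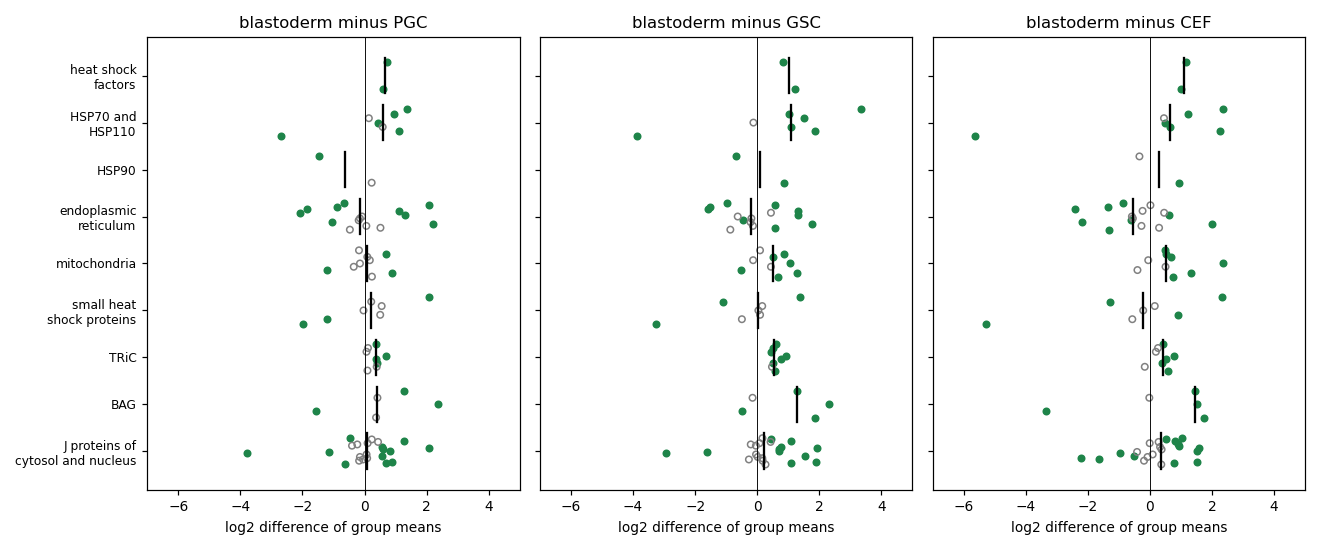
Log2 difference of group means, blastoderm minus PGC, GSC and CEF, for each chaperone gene but HSPB7L and HSPBAP1, by role, with filled points for genes called at an adjusted p below 0.05, open points for the others and a black line at the median of each role. All called TRiC genes and both heat shock factors lie to the right of 0 in the 3 panels, while genes of the endoplasmic reticulum and small heat shock proteins lie on both sides, with HSPA12A at -5.62 and HSPB1 at -5.28 farthest to the left against CEF.

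Of the 9 mitochondrial chaperone genes, 6 were higher in blastoderm than in CEF, where 27.2% of all genes were called higher, and 6 were higher in PGC than in CEF, where 27.7% were. The other 3 of each comparison were not called. DNAJC19, among the 6 for PGC, had all CEF arrays within background. HSPD1, the HSP60 of the matrix, read 11.11, 10.90 and 10.91 in blastoderm, 9.96, 10.51 and 10.36 in PGC, 9.99, 10.14 and 10.21 in GSC, and 10.53, 10.33 and 10.52 in CEF. Only blastoderm was clear of the rest, 1.81-fold above GSC (SE 0.13, adjusted p = 4.13e-05). HSPE1, the cochaperonin that caps HSPD1, read 11.03, 11.06 and 11.03 in blastoderm, 11.20, 11.39 and 11.05 in PGC, 10.98, 10.84 and 11.03 in GSC, and 10.71, 10.41 and 10.56 in CEF.

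HSPE1 was thus lowest in CEF, 1.58-fold below PGC (SE 0.10, adjusted p = 5.81e-05) and 1.39-fold below blastoderm (SE 0.10, adjusted p = 0.000883). HSPD1 and HSPE1 lie next to each other in RefSeq's chicken annotation. The highest mean was in blastoderm for HSPD1 and in PGC for HSPE1. However, HSPE1 was not called between PGC and blastoderm, whose arrays overlapped, or between PGC and GSC. For PGC against CEF, HSPE1 was called and HSPD1 was not (1.14-fold higher in CEF, SE 0.13, adjusted p = 0.278). The difference between the genes was not tested. HSPA9, the mitochondrial HSP70, read 10.70, 10.44 and 10.45 in blastoderm, 10.50, 10.57 and 10.25 in PGC, 10.17, 9.89 and 9.98 in GSC, and 9.93, 9.82 and 9.77 in CEF. Blastoderm and PGC overlapped, and blastoderm exceeded CEF 1.61-fold (SE 0.12, adjusted p = 0.000121).

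DNAJC28 had the largest difference of the mitochondrial set. It read 7.09, 7.31 and 6.57 in PGC, 6.82, 6.88 and 6.82 in blastoderm, 5.94, 5.64 and 5.79 in GSC, and 4.39, 4.49 and 4.55 in CEF. PGC overlapped blastoderm, GSC lay below both and CEF below GSC, with PGC 5.71-fold above CEF (SE 0.20, adjusted p = 5.28e-08). DNAJC11, which belongs to the complex that shapes the cristae, was highest in blastoderm, at 8.32, 8.68 and 8.64, and 2.49-fold above CEF (SE 0.17, adjusted p = 8.91e-06). DNAJC15, a J protein of the inner membrane, was highest in PGC, at 4.91, 4.67 and 4.19, with all blastoderm arrays within background and an excess of at least 1.98-fold over blastoderm (adjusted p = 0.000136). Its 1.61-fold excess over GSC (adjusted p = 0.0213) was lost in 5 of the 24 alternative fits.

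The remaining genes differed less or in fewer comparisons. In the endoplasmic reticulum, DNAJC25 was 2.91-fold higher in CEF than in GSC (SE 0.30, adjusted p = 0.000739) and 2.47-fold higher in blastoderm than in GSC (SE 0.30, adjusted p = 0.00231), with GSC values of 6.32, 5.23 and 4.64. DNAJC10, a disulfide reductase, was 1.53-fold lower in blastoderm than in CEF (adjusted p = 0.00143), where its second probe set was called the opposite way and the mean of both was not called. DNAJB12, a membrane J protein, was 1.47-fold higher in blastoderm than in GSC (adjusted p = 0.0455), a call lost in 9 of the 24 alternative fits. Of the nuclear J proteins, the splicing factor DNAJC8 was 1.44-fold higher in blastoderm than in CEF (adjusted p = 0.00204), and DNAJC2, the partner of HSPA14 at the ribosome, was 1.63-fold higher in blastoderm than in GSC (adjusted p = 0.00635). DNAJC24, which serves diphthamide synthesis, was higher in blastoderm than in GSC (4.26 against 3.50, adjusted p = 0.00389), with 2 of the 3 GSC arrays within background. In mitochondria, DNAJA3 was 1.69-fold higher in blastoderm than in CEF (adjusted p = 0.000459), and DNAJC19, of the import motor, was called higher in PGC than in GSC and CEF with both of those groups within background, and either call was lost without the first PGC array. HSPBAP1, which binds a small heat shock protein, was 2.37-fold higher in PGC than in blastoderm (SE 0.20, adjusted p = 0.00011).

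Counted over the 3 comparisons of each group, which share that group's arrays, blastoderm was called in 1 direction against all 3 others at 28 genes (35.4%, with 24.3% of all genes). In 21 of these it was highest and in 7 lowest. CEF was called so at 14 genes (17.7%, with 20.0% of all genes), 8 higher and 6 lower, and PGC at 7 (8.86%, with 8.76%), 6 higher and 1 lower. GSC was called so at 3 genes (3.80%, with 7.79%), HSPH1, HSPA4L and DNAJB6, each lower. The PGC share was near the background and moved with single arrays, to 2 genes without the first PGC array, 3 without the second and 11 without the third. The GSC count became 6 without the third PGC array or without the second CEF array.

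Related genes outside the naming rule were counted in 6 lists. Of 22 measured genes in the list of further HSP70 and HSP90 cochaperones, 13 were higher and 3 lower in blastoderm than in CEF, where 27.2% and 24.0% of all genes were. Against GSC 9 were higher and 5 lower, where 25.4% and 24.8% of all genes were. CHORDC1, a zinc-binding partner of HSP90, averaged 9.83 ± 0.18 in blastoderm, 7.03 ± 0.22 in CEF, 6.90 ± 0.51 in PGC and 5.57 ± 0.18 in GSC (SD, n = 3 each). The HSP90 activators AHSA1 and AHSA2 were 10.01 and 10.34 in blastoderm against 8.78 and 7.46 in CEF, each called higher. SGTB and the steroid receptor partner FKBP5 were called lower in blastoderm than in CEF, with 5.07 against 7.81 and 4.84 against 6.93.

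The list of folding enzymes of the endoplasmic reticulum went the same way as HSPA5 and HSP90B1. Of its 29 measured genes, 22 were lower and 2 higher in blastoderm than in CEF, 23 were lower and 2 higher than in GSC, and 19 were higher and 1 lower in PGC than in blastoderm. Over all genes 24.0%, 24.8% and 26.2% were called in the first direction of each of these comparisons. The disulfide isomerase PDIA4 was 7.86 in blastoderm, 9.30 in CEF, 9.32 in GSC and 9.36 in PGC. HYOU1, the large HSP70 relative of this compartment, was 7.34 in blastoderm and between 8.56 and 8.61 in the other groups. SERPINH1, the collagen chaperone, was 6.85 in blastoderm, 7.79 in PGC, 8.93 in GSC and 10.93 in CEF. Of the exceptions, DERL2 was higher in blastoderm than in CEF and GSC, HERPUD1 than in CEF, and the prolyl isomerase FKBP7 than in GSC.

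Fibroblast and matrix markers, which include proteins that this machinery folds, differed between the groups as well. Of 8 such genes, 2 or 3 were above background on a blastoderm array, 7 in PGC and GSC and 8 in CEF, and their summed level ran from 7.68 to 8.56 in blastoderm, 11.45 to 12.57 in PGC, 13.12 to 13.36 in GSC and 14.57 to 14.88 in CEF. Their part in the differences of the endoplasmic reticulum genes was not tested. Among 10 regulators of the unfolded protein response, 5 were lower and 2 higher in blastoderm than in CEF, with the same counts against GSC. Of all genes, 24.0% were lower and 27.2% higher against CEF, and 24.8% and 25.4% against GSC. The sensor EIF2AK3 was 3.17 in blastoderm, 3.74 in PGC, 5.60 in GSC and 6.06 in CEF, and XBP1 was 8.57, 9.07, 9.32 and 9.93 in the same order. For EIF2AK3 the blastoderm mean was within the background of 3.61 and the PGC mean close to it.

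The list of mitochondrial folding factors and proteases moved less. In blastoderm 2 of its 12 genes were higher and 2 lower than in CEF, where 27.2% and 24.0% of all genes were. TIMM44, which ties HSPA9 to the import channel, was 9.17 in blastoderm and 7.45 in CEF, and GRPEL1, the nucleotide exchange factor of HSPA9, was 8.34 and 7.71. Immediate early and stress genes, which dissociation of tissue can induce, were counted as a sixth list. Of the 16 measured, 8 were lower in PGC than in GSC, where 13.4% of all genes were, and the other 8 were not called. ATF3 was 5.37 in PGC and 7.74 in GSC, and EGR1 was 8.72 and 10.21. The summed level of this list was 11.16 to 12.31 in PGC, 12.61 to 13.07 in GSC, 12.35 to 12.63 in CEF and 12.20 to 12.83 in blastoderm. Its part in the chaperone differences was not tested.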

How the data were processed

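Total RNA of 12 samples in 4 groups of 3 was measured on Affymetrix Chicken Genome Arrays. The authors deposited 1 table of log2 values, as read from their range of 1.02 to 13.18, with array medians between 3.45 and 3.60. The submitters' processing notes name MAS5, with neither a version nor its role, and the steps that led to these log2 values are not given in the sources used here. Their scaling was kept as deposited. After 96 control and 746 viral and reporter probe sets were left out, 37693 were tested. Of these, 27166 had 1 gene symbol, 177 several and 10350 none, and 1 probe set with several symbols, a member's among them, was not used. All 79 members matched RefSeq by gene ID.

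Groups were set from the sample labels. Tests used R 4.3.3 with limma 3.58.1 (lmFit on all 12 arrays and eBayes with an intensity trend, two-sided, on 8 residual degrees of freedom), with Benjamini-Hochberg adjustment over all 37693 probe sets per comparison. The 3 arrays per group limit the precision. The fitting code was tested on simulated data. The members and the lists of related genes and markers were chosen with earlier results of these data known. Genes given in full were the heat shock factors, the main HSP70, HSP90, HSP60 and small heat shock genes and BAG3, the 5 called members with the largest difference in each direction of each comparison, and up to 6 members per group called in 1 direction against all 3 others. From each list of related genes, up to 4 called genes per comparison were named. Where all arrays of a group were within background, a fold is a lower bound taken from the background level. The labels state no pairing, so replicate numbers were not used as pairs. Deviations of same-numbered arrays had correlations from -0.18 to 0.21, which cannot show whether samples were paired. The alternatives were offsets before the logarithm, a background filter, quantile and median scaling, prior and array weight settings, a replicate block, fits of 2 groups only, other probe set rules and leaving out each array. Gene order was taken from the RefSeq gene table, and no sequences were used.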

Additional observations from a re-analysis of the deposited data

How the results depend on the processing

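Of the 237 called differences, 172 were called in the same direction under all 24 alternative fits. The other 65 were lost or turned in at least 1 fit, and many of those that a statement on a named gene rests on are given beside that gene. The 24 include 1 rule that used probe sets ending in _x_at only where a gene had no other. That rule was no new fit and changed no call. The count of genes lower in PGC than in GSC was 13 with array weights instead of 6. The count for GSC against all 3 other groups was 5 among probe sets above background, 6 with arrays centred on their median and 5 with array weights, instead of 3. With a replicate block 5 of the 237 calls were lost and 7 were gained. Lost were DNAJB12 and HSPA13 for blastoderm and GSC, HSF2 for PGC and CEF, HSPA14 for PGC and GSC, and HSPD1 for GSC and CEF. The labels do not say whether equal replicate numbers pair samples. The share of higher calls for PGC and GSC was 69.05% with array weights and 79.31% without.

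Leaving out 1 array at a time gave 15 to 27 genes higher and 5 to 13 lower for PGC against GSC, 14 to 17 and 23 to 30 for PGC against blastoderm, 18 to 27 and 12 to 20 for PGC against CEF, 9 to 12 and 12 to 20 for GSC against CEF, 33 to 38 and 12 to 18 for blastoderm against CEF, and 34 to 38 and 10 to 15 for blastoderm against GSC. Counts against all 3 other groups ranged from 2 to 11 for PGC, 2 to 6 for GSC, 12 to 14 for CEF and 27 to 29 for blastoderm. The difference of CCT3, PGC minus GSC, ranged from -0.67 without the third PGC array to 0.55 without the second.

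With the mean of all probe sets of a gene, 46 differences turned sign, 36 of them called neither before nor after. The other 10 were called in at least 1 of the fits. They became -0.47 for DNAJC5 (PGC minus GSC), 0.23 for DNAJC7 (PGC minus blastoderm), -0.36 for CCT8, 0.18 for DNAJC10 and 0.40 for HSP90B1 (PGC minus CEF), 0.54 for DNAJC10 and -0.55 for DNAJB9 (GSC minus CEF), -0.087 for DNAJC7 (blastoderm minus CEF), and -0.40 for DNAJC7 and 0.44 for HSPA4 (blastoderm minus GSC). This alternative averages all probe sets of a gene, also where they disagree. The cause of these changes and of those in the other alternatives was not tested. A description of promoter motifs was planned and not run.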

Other observations

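The second GSC array was the highest of the 3 for some members and not for others. HSPB9 read 11.95 there beside 10.53 and 10.37, HSPA2 11.42 beside 10.37 and 10.17, and DNAJA4 9.87 beside 9.26 and 9.42. HSPA8 was 11.42 there beside 11.43 and 11.36, HSPA4L was lowest there, at 7.33 beside 7.66 and 7.60, and DNAJB4 was 7.80 beside 7.98 and 7.78. Within PGC, HSPB9 was lowest on the second array, at 9.13 beside 11.31 and 10.29, while HSPA2 was lowest on the third, at 10.77 beside 11.52 and 11.15. These genes were picked after their values were seen, so no test was run.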
